A study of Mus musculus with 8 samples.

Results

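Skeletal muscle fibres and brown adipocytes arise from a common dermomyotomal precursor that expresses Myf5, and the chromatin of the genes that make a muscle cell is therefore of interest in brown adipose tissue (BAT). The genes examined here were 9 muscle regulatory genes: the myogenic bHLH factors Myod1, Myf5, Myf6 and Myog, the MEF2 factors Mef2a, Mef2c and Mef2d, the homeobox factor Six4, and Ckm, which encodes muscle creatine kinase. Summits of ATAC-seq peaks were taken for a gene when they lay in its transcribed region or within 50 kb of the transcription start site (TSS) of a curated RefSeq mRNA. This rule gave 35 summits of the 32173 in the deposited list.

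ATAC-seq marks open chromatin through the Tn5 transposase, which inserts sequencing adapters where nucleosomes are absent. The nuclei came from BAT of 12-week-old mice on chow diet that were kept at 4°C for 4 hr, with 2 WT and 2 Dot1L-BKO libraries, each from a separate mouse. Dot1L-BKO mice came from a cross of Dot1l floxed mice with Ucp1-Cre mice, which deletes this H3K79 methyltransferase in Ucp1+ cells. The WT mice were littermates, described as Dot1l f/f in other experiments of the study, and their alleles are not stated for ATAC-seq. The deletion is limited to Ucp1+ cells, while the nuclei were of the whole tissue. RNA-seq was not used here. For the 4 libraries together, the ATAC-seq list gives where each peak has its summit and the −log10 of the q-value from MACS2, called the score here. The paper reports peaks for each condition and a union of regions built from the peaks of single samples, without naming this list. The list sets WT against Dot1L-BKO, and the sources used here do not say if Dot1L-BKO was the control of peak calling. This bears on every score, count and marker check given here. If it was the control, a score would measure WT signal over Dot1L-BKO signal rather than open chromatin as such, and a locus without a summit could be equally open in both genotypes. No library has a value of its own, so that read depth is unknown, replicate error cannot be given, and the genotypes could not be compared. A summit in this list is therefore described by its place and its score, and a gene without one had no peak past the cutoff in this list, which does not show that its chromatin was closed. Scores reached 13426 over all summits with a median of 5.001, and many were equal, since 1942 summits shared the score 4.16.

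The myogenic bHLH factors bind the E-box, a short palindromic site, and turn on the muscle program. Myod1 and Myf5 act in commitment to the lineage, Myog in differentiation and Myf6 late in it. MEF2 factors bind an A/T-rich site, act together with the bHLH factors in muscle, and are used in many other cell types. Six4 acts upstream of the bHLH genes through the MEF3 site, and Ckm is a classical target of the whole circuit. In the formation of brown fat, Prdm16 and Ebf2 turn precursors away from the muscle fate.

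Sequences are shown for the loci on which the results turn, from the mm10 genome (GRCm38) and in the direction of transcription of the named gene. Those of summits span 100 bp on each side of the summit, and those of promoters span 250 bases before to 50 after a TSS, from RefSeq. Capitals mark E-boxes (CANNTG), the MEF2 pattern (YTAWWWWTAR) and the core of the MEF3 site (TCAGGTT), searched on both strands. In the MEF2 pattern Y is C or T, W is A or T, and R is A or G. A site that departs from a pattern at any base was not counted. The MEF2 gene promoters with a summit are given through that of Mef2a, which holds the only MEF2 pattern among the 10 of 13 member promoters that the RefSeq promoter table held, and through the summits at both genes. The promoter summits of Mef2a and Mef2d lay just upstream of their TSSs.
Mef2a promoter, chr7:67372809-67373108, minus strand: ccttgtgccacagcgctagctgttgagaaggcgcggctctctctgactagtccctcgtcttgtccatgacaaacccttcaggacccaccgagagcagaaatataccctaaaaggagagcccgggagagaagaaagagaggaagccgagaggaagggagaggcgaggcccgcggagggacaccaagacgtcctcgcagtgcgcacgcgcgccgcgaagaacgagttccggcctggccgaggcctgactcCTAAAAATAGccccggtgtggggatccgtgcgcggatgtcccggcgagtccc
Mef2a promoter summit, chr7:67373068-67373268, minus strand: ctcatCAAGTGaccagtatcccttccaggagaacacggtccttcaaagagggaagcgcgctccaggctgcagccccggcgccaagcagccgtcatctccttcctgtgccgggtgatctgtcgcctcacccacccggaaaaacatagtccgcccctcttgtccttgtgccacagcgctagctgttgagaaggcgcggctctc
Mef2d promoter summit, chr3:88142050-88142250, plus strand: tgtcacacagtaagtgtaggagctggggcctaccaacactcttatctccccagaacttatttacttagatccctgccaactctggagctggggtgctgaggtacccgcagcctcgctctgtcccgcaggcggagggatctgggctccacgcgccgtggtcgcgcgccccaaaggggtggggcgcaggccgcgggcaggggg

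The other summits of score 10 or more were all in the window of Mef2d, upstream of the gene, in an intron and past its end.
Mef2d upstream summit, chr3:88138310-88138510, plus strand: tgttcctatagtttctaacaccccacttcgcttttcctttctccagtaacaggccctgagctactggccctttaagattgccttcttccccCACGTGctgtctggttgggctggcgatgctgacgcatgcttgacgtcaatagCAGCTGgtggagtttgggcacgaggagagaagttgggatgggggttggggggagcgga
Mef2d intronic summit, chr3:88149203-88149403, plus strand: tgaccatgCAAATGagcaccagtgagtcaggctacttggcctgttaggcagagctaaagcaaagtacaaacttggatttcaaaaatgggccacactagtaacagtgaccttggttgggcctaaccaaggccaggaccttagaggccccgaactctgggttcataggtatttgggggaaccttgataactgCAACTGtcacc
Mef2d downstream summit, chr3:88177890-88178090, plus strand: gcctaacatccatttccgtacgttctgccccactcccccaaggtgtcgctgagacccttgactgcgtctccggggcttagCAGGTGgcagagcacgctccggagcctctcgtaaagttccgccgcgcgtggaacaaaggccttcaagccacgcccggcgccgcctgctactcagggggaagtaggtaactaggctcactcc

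For contrast, the highest summit near Myog is shown, which lay past the end of the gene, together with the promoters of Myog and Six4, which had no summit and which both hold the MEF3 core.
Myog downstream summit, chr1:134293988-134294188, plus strand: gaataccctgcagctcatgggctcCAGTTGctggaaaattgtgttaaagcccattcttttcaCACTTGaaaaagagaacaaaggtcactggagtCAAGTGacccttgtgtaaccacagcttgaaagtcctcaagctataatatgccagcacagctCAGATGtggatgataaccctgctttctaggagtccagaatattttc
Myog promoter, chr1:134289754-134290053, plus strand: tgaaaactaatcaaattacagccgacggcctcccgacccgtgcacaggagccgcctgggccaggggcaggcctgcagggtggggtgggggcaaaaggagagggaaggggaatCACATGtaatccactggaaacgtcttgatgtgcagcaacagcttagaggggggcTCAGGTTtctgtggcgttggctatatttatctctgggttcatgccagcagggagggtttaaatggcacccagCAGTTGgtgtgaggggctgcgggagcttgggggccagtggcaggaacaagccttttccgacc
Six4 promoter, chr12:73113196-73113495, minus strand: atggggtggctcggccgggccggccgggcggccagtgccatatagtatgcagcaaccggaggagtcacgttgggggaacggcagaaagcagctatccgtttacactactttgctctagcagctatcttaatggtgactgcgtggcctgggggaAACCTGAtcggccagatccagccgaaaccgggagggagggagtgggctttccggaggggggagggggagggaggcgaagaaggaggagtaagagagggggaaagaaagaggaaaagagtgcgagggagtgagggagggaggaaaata

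The 9 loci differed widely. Mef2d had 15 summits, Ckm 13, Myog 5, and Mef2a and Six4 a single summit each, while Myod1, Myf5, Myf6 and Mef2c had none. Thus 5 of 9 members had a summit in the window, against 72.5% of all 21000 genes. The median was 1 summit per member and 2 per gene over all genes, with quartiles of 0 and 5. A promoter summit, here one within 1 kb of a TSS, was found at 2 of 9 members, Mef2a and Mef2d, against 45.2% of all genes. Both had a score of 10 or more, which 23.5% of all genes reached at a promoter. Of the 35 summits, 18 were nearest to the TSS of a member, and these fell to 3 genes, with 14 at Mef2d, 3 at Myog and 1 at Mef2a. The other 17 were nearest to the TSS of a neighbouring gene. Over all genes, 54.4% had at least 1 summit nearest to their own TSS in the same window.

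**Figure D1:**
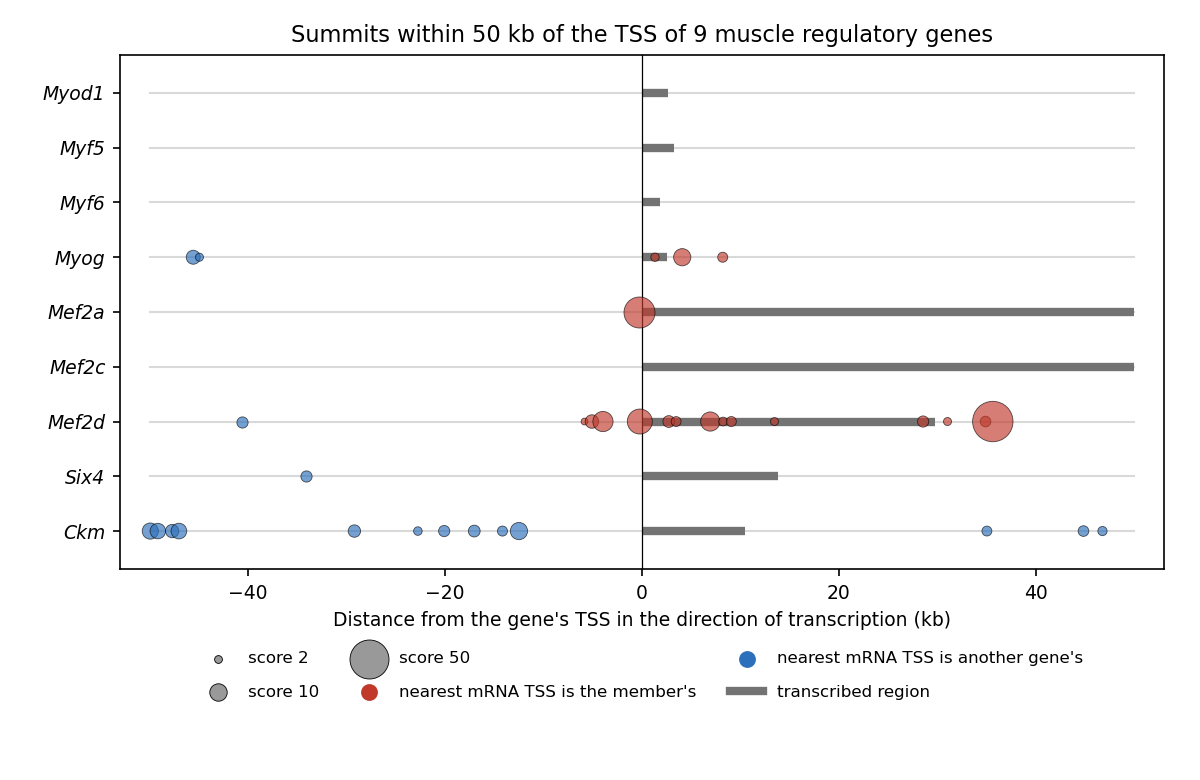
Summits around the 9 genes, by distance in kb from the TSS in the direction of transcription (x axis), with 1 line per gene. The area of a circle gives the score, red circles are nearest to the member's own TSS and blue circles to that of another gene, and grey bars are transcribed regions (cut at 50 kb for Mef2a and Mef2c). Mef2d carries 14 of the 18 red circles, and the 13 circles of Ckm are all blue.

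**Figure D2:**
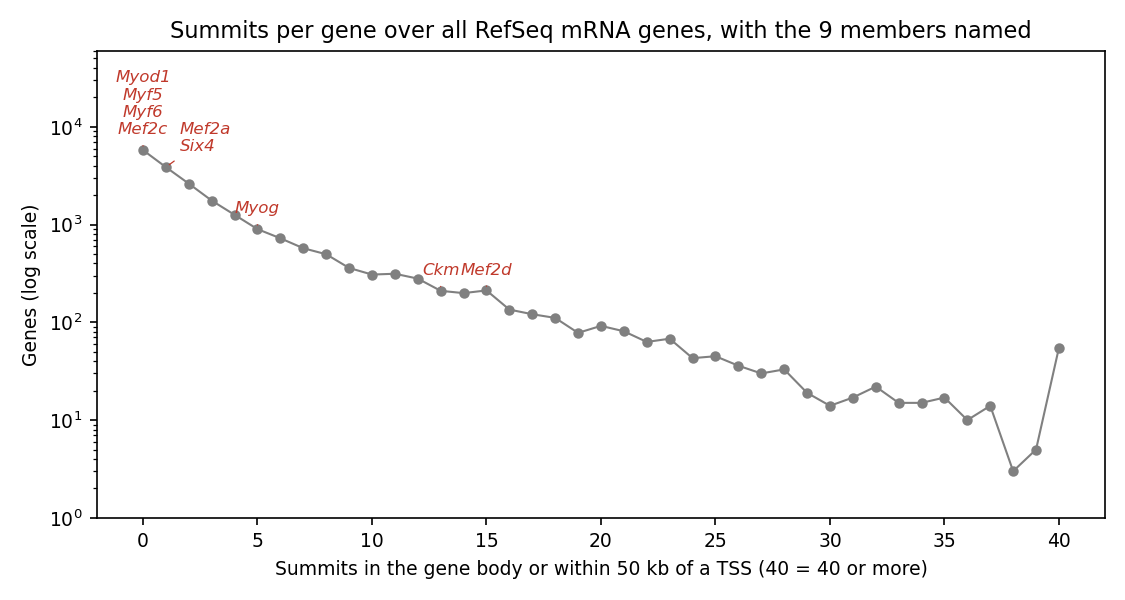
Number of genes (y axis, log scale) by their number of summits in the transcribed region or within 50 kb of a TSS (x axis), over all 21000 genes. The members are named above their value, from 0 summits at 4 genes to 15 at Mef2d, and the last point stands for 40 or more summits.

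Scores at these loci were mostly low. They ran from 1.54 to 53.8 with a median of 4.16, against 5.001 over the list. Only 5 of the 35 summits (14.3%) had a score of 10 or more, against 23.5% of all summits, and those were the promoter summit of Mef2a and 4 summits in the window of Mef2d. Within 1 kb of any TSS lay 6 of the 35 (17.1%), against 32.2% of all summits. As a check of the tissue, with the same limit on what a score measures, all 8 brown adipocyte markers had a promoter summit, with Ucp1 at 33.7. Of 11 skeletal muscle fibre markers, which include Ckm, 2 (18.2%) had one, Mylpf and Actn3, against 45.2% of all genes. In their windows, 3 of the 11 had no summit, against 27.5% of all genes.

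Among the myogenic bHLH genes, Myod1, Myf5 and Myf6 had no summit in their windows. Myod1, on chromosome 7 from 46376474 to 46379092, had its nearest summit 208096 bp upstream, at 46168378, with a score of 20.5. That summit was 11655 bp from the TSS of Abcc8, which encodes a subunit of a potassium channel. The stretch without a summit around Myod1 was 472 kb long. Myf5 (107482908 to 107486134) and Myf6 (107492848 to 107494723) lie side by side on the minus strand of chromosome 10, with TSSs 8589 bp apart, and share a neighbourhood. No summit lay between 107272154 and 107845787, which is 574 kb around both genes. The summit at the near end of this stretch scored 2.15 and lay 240 bp from the TSS of Lin7a, a scaffold protein gene. Distances as long as those of Myod1, Myf5 and Myf6 to the nearest summit were found at 9.96%, 9.60% and 9.25% of all genes, so that they are long but not rare. The median over all genes was 4945 bp.

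Myog, the factor of terminal differentiation, was the only bHLH member with summits. The gene is on the plus strand of chromosome 1 (134290004 to 134292548). A summit of score 2.33 lay 1320 bp downstream of its TSS in an intron. A higher one, of score 9.79 and rank 7614 of 32173, lay 4084 bp downstream of the TSS, 1540 bp past the end of the gene. Another, of score 3.32, was 8197 bp downstream in an exon of Ppfia4, the next gene. The remaining summits of this window, with scores of 6.45 and 2.15, lay over 44 kb upstream and were nearest to Adora1, an adenosine receptor gene. As many as 5 summits were found at 27.2% of all genes, and as many as 3 nearest to the own TSS at 15.4%. With noncoding and predicted transcripts, 2 stayed nearest to Myog, since the one in Ppfia4 was 1233 bp from Gm32267, and the total over the 9 genes went from 18 to 13. The Myog promoter itself had none within 1 kb, although its shown sequence has E-boxes that start 138 and 12 bp before the TSS and a MEF3 core that starts 84 bp before it. It also holds ctatatttat, which departs from the MEF2 pattern at its last base only and was therefore not counted. E-boxes were in 68.4% of all promoters of this length and MEF3 cores in 3.77%.

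The MEF2 genes went from the richest locus of the set to the poorest. Mef2d (chromosome 3, 88142372 to 88172091, plus strand) had 15 summits over 76272 bp, 14 of them nearest to its own TSS. This many was seen at 116 of 21000 genes (0.552%). When noncoding and predicted transcripts were also used, 10 stayed nearest to Mef2d, since 4 were then nearer to 1700113A16Rik, a noncoding RNA gene downstream. By place, 5 summits were in introns of Mef2d, 2 in its exons, 7 between genes and 1 in an exon of Iqgap3, 40654 bp upstream. Their scores had a median of 4.16, as for all 35, and 4 of 15 reached 10.

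The promoter summit of Mef2d was at 88142150, 222 bp upstream of the TSS, with a score of 20.6 and rank 2962. A score this high was found at 25.3% of the 9485 genes with a promoter summit. The upstream summit at 88138410, 3962 bp before the TSS, scored 13.4, and the intronic summit at 88149303, 6931 bp after it, scored 12.2. The highest summit of the whole set was at 88177990, 35618 bp downstream of the Mef2d TSS, with a score of 53.8. It ranked 449 of 32173, and 122 of the 21798 summits that were over 1 kb from an mRNA TSS. It lay 205 bp from the start of 1700113A16Rik, so that the locus summit of highest score stood at the start of this noncoding RNA and not at Mef2d. Weaker summits stood between these. Upstream of the gene they scored 1.54 at 5833 bp and 6.02 at 5083 bp from the TSS. In the introns they scored 4.61, 3.20, 2.53 and 3.32, at 2721, 3467, 8227 and 9069 bp after the TSS. The exonic ones scored 2.10 at 13451 bp and 4.16 at 28542 bp, and those past the gene scored 2.15 at 31019 bp and 3.75 at 34878 bp.

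Mef2a (chromosome 7, 67231163 to 67372858, minus strand) had a single summit, at 67373168. This was 310 bp upstream of the TSS. Its score of 31.7 ranked 1445, and 13.2% of the genes with a promoter summit scored as high. None lay in the 142 kb of its transcribed region. A further one, at 67229066, was 2097 bp past the end of the gene and thus just outside the window, which for this long gene ends with the transcribed region. Mef2a had a higher score at the promoter than Mef2d, and fewer summits inside its window, but the window reached past the end of Mef2d and not past that of Mef2a. Its promoter holds the MEF2 pattern starting 2 bp before the TSS, which 2.59% of all promoters had.

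Mef2c had the emptiest neighbourhood. The gene (chromosome 13, 83504034 to 83667079, plus strand) has 4 curated TSSs, and its window spanned 213 kb. No summit was found from 81783615 to 84222304, a stretch of 2439 kb. The nearest, 648697 bp from a Mef2c TSS, scored 10.7 and lay 8 bp from the TSS of Tmem161b. Only 1.49% of all genes were as far from a summit. Of the 1234 genes with a window at least as long, 323 (26.2%) had no summit, close to the 27.5% of all genes, so that a long gene without a summit is common in this list.

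Six4 (chromosome 12, 73099609 to 73113425, minus strand) had no summit at either of its 2 TSSs. Its single summit, of score 4.16, lay 34146 bp upstream in an intron of Mnat1, which encodes an assembly factor of the CDK-activating kinase. The closest summit outside the Six4 window, at 59292 bp, had a score of 16.7.

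Ckm had the second largest number, and none of its 13 summits was nearest to its own TSS. The gene (chromosome 7, 19411094 to 19421583, plus strand) stands in a gene-dense stretch. The closest summit, of score 9.79, was 12495 bp upstream in an intron of Klc3, a kinesin light chain gene, and its window lay wholly in masked repeat sequence. The 13 scores went from 2.42 to 9.79. Of the neighbours with a TSS in this window, Ppp1r13l, an inhibitor of p53, had promoter summits of up to 8.65, Ercc2, a helicase of TFIIH, had 5.07, and Mark4, a microtubule kinase, had 2.80. Klc3, whose TSS is the nearest to that of Ckm at 6990 bp, had no promoter summit. The limit of 50 kb cut through this neighbourhood, as the farthest summit inside was at 49924 bp with a score of 8.65 and the closest outside at 51507 bp with a score of 6.02. The farthest inside and the closest outside were at 45565 and 54161 bp for Myog (scores 6.45 and 3.20), at 40654 and 60558 bp for Mef2d (4.16 and 5.07), and at 310 and 87640 bp for Mef2a (31.7 and 2.92), counted from the TSS. Between 19398599 and 19446113, which holds the whole of Ckm, there was no summit over 47.5 kb.

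Promoter composition, which the rule did not use, separated part of these genes. Promoters rich in the dinucleotide CpG tend to be open in many tissues, and the ratio of observed to expected CpG was taken in the 300-base promoter window, with 0.6 as the limit. Over all 26032 TSSs, counted per gene, 70.5% of those with a ratio of at least 0.6 had a summit within 1 kb, against 17.8% of those under it. The 4 bHLH genes and Ckm had ratios from 0.163 to 0.427 and no promoter summit. In all, 7 member TSSs were under the limit and 0 of these had a summit. Of the 6 at or over it, 2 had one, at Mef2a (0.929) and Mef2d (0.619). The other 4 were those of Six4 (0.640 and 0.713) and of Mef2c (0.612 and 0.962). The Mef2c TSS with 0.962 had a higher ratio than the promoter of Mef2a and no summit.

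**Figure D3:**
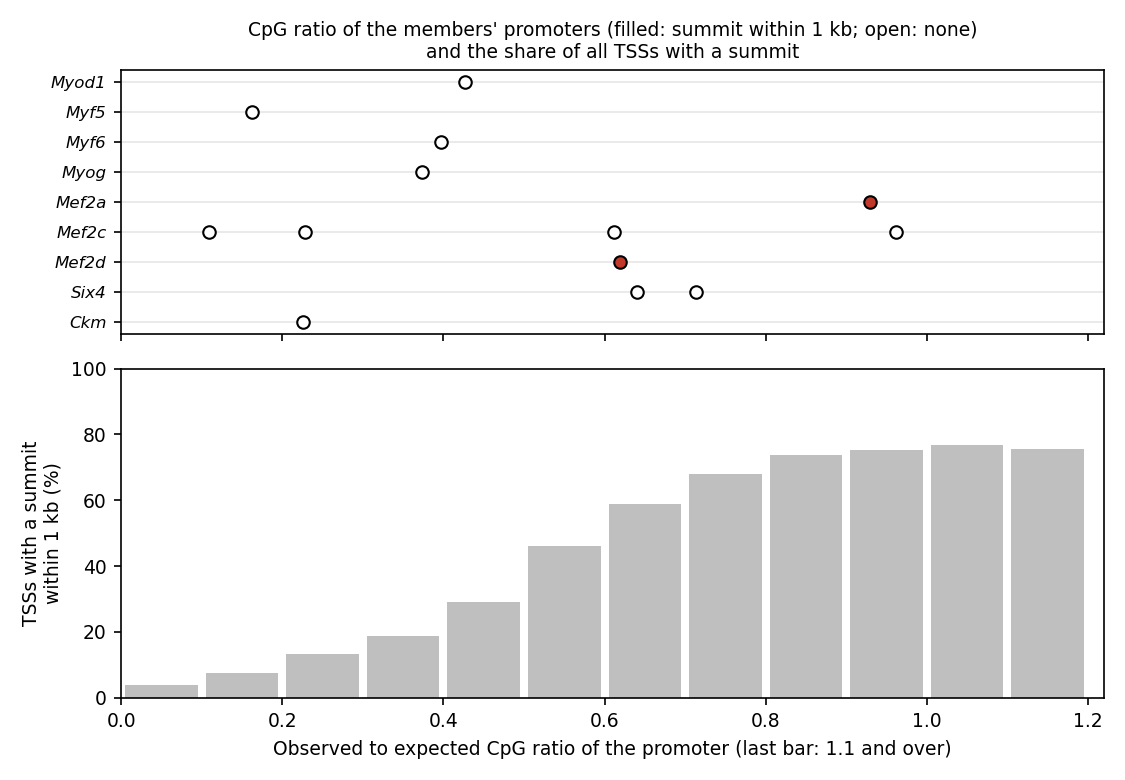
Upper panel, the observed to expected CpG ratio of each of the 13 member TSSs (x axis), filled where a summit lay within 1 kb and open where none did. Lower panel, the share in percent of all TSSs with a summit within 1 kb (y axis) by CpG ratio in bins (x axis). The share climbs from 4.03% in the lowest bin to over 75% near a ratio of 1, and the filled points of Mef2a and Mef2d stand at 0.929 and 0.619 among open points of Mef2c and Six4.

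Short sequence patterns in the 35 summit windows were counted beside all 32173 windows of the same length. E-boxes were found in 29 of 35 (82.9%, 95% Wilson interval 67.3% to 91.9%) and in 58.4% of all windows. With 50 bp on each side the shares were 60.0% and 37.3%. Of the 18 summits nearest to a member TSS, 15 (83.3%) had an E-box. The median GC content of the member windows was 56.2%, as over all windows. E-boxes with a GC centre (CAGCTG), the form that bHLH factors of muscle prefer, were at 14.3% and 13.5%. The MEF2 pattern was in 0 of 35 windows (Wilson interval up to 9.89%) and in 0.734% of all, and the MEF3 core in 1 of 35 (2.86%) and 4.21% of all. AP-1 patterns (TGANTCA) were at 5.71% and 6.40%, and the short CTCF pattern (CCCTC) at 57.1% and 52.9%. The EBF pattern (CCCNNGGG) was at 14.3% and 15.7%, and the C/EBP pattern (TTNNNNAA) at 31.4% and 40.7%. These are matches to letters only, in windows that share loci, the intervals cover counting error only, and the CAGCTG matches are counted among the E-boxes too.

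Genes around this circuit were looked at through lists. Of 24 further muscle lineage genes, 9 had a promoter summit (37.5%, against 45.2% of all genes). They were led by Tcf3 (49.1), which encodes the E-protein partners of the bHLH factors, and by Id2 (26.9) and Id3 (24.9), whose products hold bHLH factors off DNA. Eya3 (22.4), a cofactor of Six4, also had one, as did Id1 (13.4). In their windows, 8 of the 24 had no summit, against 27.5% of all genes. Among the 8 were Pax3 and Pax7, which mark muscle precursors and satellite cells. Pax7 had its nearest 130193 bp away and Pax3 291835 bp away. En1, which like Pax7 and Myf5 marks the precursor that gives brown fat, had no summit in its window either, with 336818 bp to the nearest.

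Genes that act on MEF2 proteins had promoter summits at 10 of 15 (66.7%, against 45.2% of all genes). Of the 15, 13 had a CpG-rich promoter, and 71.1% of all genes with such a promoter had a promoter summit. Hdac4, a class IIa deacetylase that represses MEF2, had the highest score at 61.5, followed by Mapk7 (39.3), the ERK5 kinase that activates MEF2, and Cabin1 (33.3), a corepressor. Myocd, a partner of muscle gene activation, had no summit in its window. Of 9 genes of brown fat determination, 8 had a promoter summit (88.9%), and 8 had a CpG-rich promoter. The highest scores were those of Cebpb (41.0), Ppargc1a (20.8) and Pparg (19.1), with Ebf2 at 12.5 and Prdm16 at 8.65, and En1 was the exception.

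Sarcomere and excitation genes, the products of the muscle program, had a promoter summit at 5 of 43 (11.6%, against 45.2% of all genes). With 5 kb on each side of the TSS the count was 16 of 43, against 50.029% of all genes. Mylpf, a myosin light chain gene of fast fibres, had the highest score at 43.7, and Tpm1 (24.6), a tropomyosin gene that many cell types use, came next. Actn3 had 22.4, but that summit was 46 bp from the TSS of Zdhhc24 and 713 bp from that of Actn3. Pygm (5.07) and Casq1 (1.83) were the other ones. In their windows, 12 of the 43 had no summit, against 27.5% of all genes. Among the 12 were the fast myosin genes Myh1 and Myh4 and the actin gene Acta1. Myh2 had a single summit of score 1.58. Composition differs between these lists. Of the 43 sarcomere genes 6 had a CpG-rich promoter, against 13 of 15 MEF2 regulators, 8 of 9 determination genes and 52.6% of all genes. The 8 brown adipocyte markers had 0 such promoters and all had a promoter summit, against 16.4% of all genes without one. Of the 11 skeletal muscle fibre markers, 9 had no CpG-rich promoter, and 1 of these 9 had a promoter summit. Markers of other cell types that whole BAT can hold had few promoter summits. The 3 satellite cell markers, Pax7, Myf5 and Msc, had 0, and endothelial and macrophage markers 1 of 4 each (Cdh5, 2.59, and Cd68, 2.15). The part of other cell types in the summits of the 9 genes was not tested, and a peak in few cells cannot be told apart from a weak one in many.

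**Figure D4:**
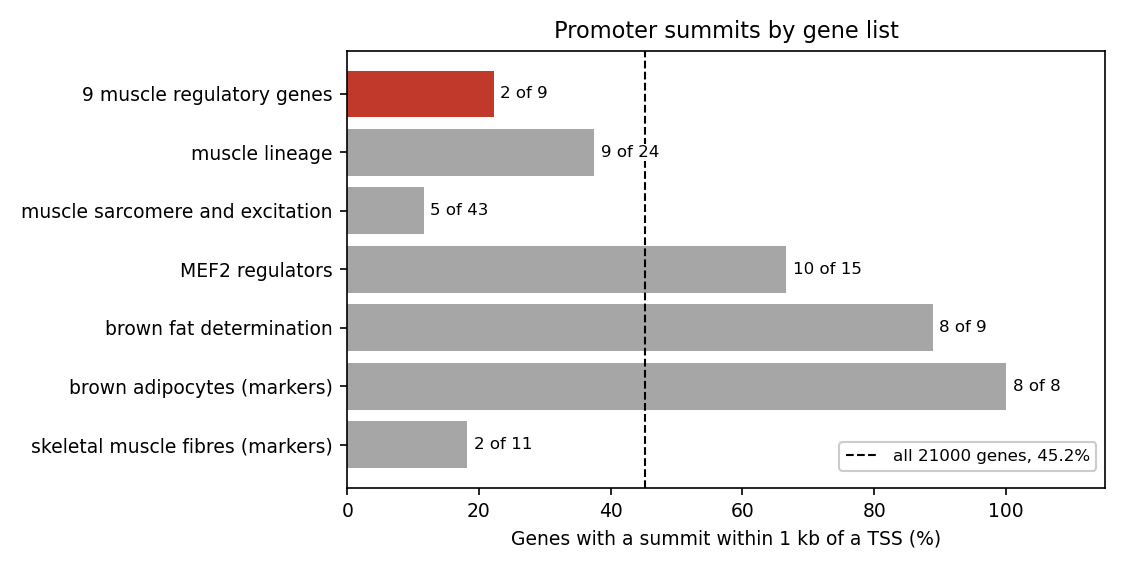
Share in percent of genes with a summit within 1 kb of a TSS (x axis) for the 9 muscle regulatory genes (red) and for other gene lists (grey), with the count of genes beside each bar and all 21000 genes as the dashed line at 45.2%. The 9 genes (2 of 9) and the sarcomere genes (5 of 43) are left of the line, and brown fat determination genes (8 of 9) and brown adipocyte markers (8 of 8) are right of it.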

How the data were processed

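Nuclei of BAT were processed for ATAC-seq from 2 mice per genotype. Per the study's methods and the labels, the authors trimmed reads, mapped them in Partek Flow (BWA, mm10) and ran MACS2 2.1.1 in its ATAC mode, at q up to 0.05 and a fold enrichment of at least 2.0. The authors deposited 1 list of summits with a −log10 q-value for the 4 libraries. Read shifting and the treatment of multi-mapped and mitochondrial reads are not given in the sources used here. Depth is unknown.

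Summits were compared with curated RefSeq mRNAs of GRCm38 (mm10) over the autosomes, X and Y (21000 genes, 25999 TSSs). The shares by CpG ratio and of promoter patterns rest on 26032 TSSs, where a position shared by genes counts for each of them. The window was the span of curated mRNAs plus 50 kb on each side of each TSS, and promoters were 1 kb on each side. Since no library has a value of its own, no test was made, and counts are given beside those of all genes. The members and lists were chosen with earlier results of these data known. All 9 members were named, with the 3 highest promoter scores of each list and neighbours of the highest summits, and other genes were named after their values were seen. Some items are not reported here. The counting was tested on simulated data. Alternatives changed the score minimum, windows, transcripts and merging. Python 3.11.15, numpy 2.4.6, pandas 2.3.3, pysam 0.24.0, scipy 1.17.1 and matplotlib 3.10.9 were used.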

Additional observations from a re-analysis of the deposited data

How the results depend on the processing

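No paired analysis was possible because each peak has a single score for the 4 libraries, which also left no replicate to leave out. Promoter summits at Mef2a and Mef2d were counted under all 7 alternatives, and a promoter window of 5 kb added Myog. The score minimum lowered counts by construction. At scores of at least 5 and 10, 14 and 5 summits were left in the windows and 7 and 5 of them were nearest to a member TSS. At 10, 3 sarcomere genes, 6 MEF2 regulators and 4 determination genes had a promoter summit. The windows held 15 summits with 10 kb, 70 with 100 kb and 8 with the gene body only, where all 8 were nearest to a member TSS. Sarcomere genes with a promoter summit rose to 16 with 5 kb. The share of all genes was 44.7%, 36.1% and 23.5% at scores of at least 2, 5 and 10, 41.4% with 500 bp, 50.029% with 5 kb, 35.2% from 1 kb upstream to 100 bp downstream and 46.5% with all transcripts.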

Other observations

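Several muscle genes without a promoter summit had a summit of high score in their 50 kb window, and these genes were chosen after their values were seen. The window of Des, the intermediate filament gene of muscle, held a summit of score 119 (rank 31 of 32173), which lay 31 bp from the TSS of Dnpep. The highest in the window of Pvalb, a calcium buffer of fast fibres, scored 68.5 and lay 157 bp from the TSS of Ift27. That of Tnnc2 scored 54.7 and lay 50 bp from the TSS of Zswim3. The myoglobin gene Mb differed from these, since its highest summit, of score 45.4, was 8081 bp from the nearest mRNA TSS, that of Apol6.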
